A study of Mus musculus with 8 samples.

Results

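Dmpk, Dmwd, Six5, Ednra and Crtac1 were followed in myeloid cells sorted from sanroque mice, which are homozygous for the san allele of Roquin on the C57BL/6 background and develop a lupus-like autoimmune disease. The 5 genes, out of 54188 in the count table, were chosen by their counts in the Gr-1hi subset: Ednra, Dmpk, Crtac1 and Dmwd had the lowest SP to BM ratios there among genes that reached at least 10 CPM (counts scaled to library size) in 1 of the tissues and whose libraries did not overlap, and Six5 was added as the chromosomal neighbour of Dmpk. CD11b+ Gr-1hi and Gr-1lo cells (labelled G-MDSC and M-MDSC) were sorted from the spleen (SP) and bone marrow (BM), and RNA was sequenced from 2 libraries in each of the 4 groups. All 8 libraries came from sanroque mice labelled as female and 20 weeks old, so no group with wild-type Roquin was compared. The study's methods call the replicates of a condition biologically independent, and the labels do not name the mouse behind each library. The SP cells are the spleen-derived myeloid cells (SDMCs) of the study, which asked how they differ from their BM counterparts.

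Dmpk encodes a serine/threonine kinase that is best known because a CTG repeat expansion in the human gene causes myotonic dystrophy. Dmwd, just upstream, encodes a WD-repeat protein related to a cofactor of ubiquitin-specific proteases, and Six5, just downstream, a homeobox transcription factor that works with Eya proteins. Ednra encodes a G protein-coupled receptor for endothelin and is best known from vascular smooth muscle, where it raises calcium and causes contraction. Crtac1 encodes a secreted protein of cartilage and the nervous system, also described as an antagonist of the Nogo receptor. In bone marrow, granulocytes pass from promyelocytes, which make primary granule proteins such as Mpo, to cells that make secondary granule proteins such as Ltf, and then to mature neutrophils.

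Dmwd (7:19076227-19082776), Dmpk (7:19083849-19093821) and Six5 (7:19094594-19098549) lie head to tail on the plus strand of chromosome 7 in GRCm38, with 1072 bases between Dmwd and Dmpk and 772 between Dmpk and Six5. Ednra (8:77663031-77724464) and Crtac1 (19:42283035-42431783) lie on the minus strands of chromosomes 8 and 19. The 3 neighbours of chromosome 7 differed in level although they are so close. The other 2 genes, on other chromosomes, were chosen for the same SP to BM decrease in Gr-1hi as Dmpk. The 250 bases before each RefSeq start (GRCm38.p6) are shown 5′ to 3′ for all 5. Capitals mark, on either strand, the motifs found among 6 searched.
Dmwd (chr7:19075950-19076199, plus strand): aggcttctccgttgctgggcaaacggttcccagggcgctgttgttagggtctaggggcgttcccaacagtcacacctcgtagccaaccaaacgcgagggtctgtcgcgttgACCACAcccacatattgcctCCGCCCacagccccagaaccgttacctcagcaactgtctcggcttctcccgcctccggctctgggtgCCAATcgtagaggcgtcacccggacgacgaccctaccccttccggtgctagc
Dmpk (chr7:19083608-19083857, plus strand): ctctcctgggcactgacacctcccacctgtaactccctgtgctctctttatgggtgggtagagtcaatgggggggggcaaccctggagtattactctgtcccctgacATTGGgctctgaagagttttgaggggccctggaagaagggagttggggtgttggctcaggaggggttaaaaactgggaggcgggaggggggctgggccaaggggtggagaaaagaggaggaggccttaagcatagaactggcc
Six5 (chr7:19094294-19094543, plus strand): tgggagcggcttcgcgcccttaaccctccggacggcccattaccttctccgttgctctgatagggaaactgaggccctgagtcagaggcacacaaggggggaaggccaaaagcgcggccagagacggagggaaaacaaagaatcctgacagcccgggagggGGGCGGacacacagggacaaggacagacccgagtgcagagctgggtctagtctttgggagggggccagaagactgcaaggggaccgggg
Ednra (chr8:77724453-77724702, minus strand): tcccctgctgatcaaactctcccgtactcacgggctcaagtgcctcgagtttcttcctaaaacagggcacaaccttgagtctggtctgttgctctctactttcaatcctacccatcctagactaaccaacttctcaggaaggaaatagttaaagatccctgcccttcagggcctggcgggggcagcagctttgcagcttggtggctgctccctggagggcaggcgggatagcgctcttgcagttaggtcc
Crtac1 (chr19:42431789-42432038, minus strand): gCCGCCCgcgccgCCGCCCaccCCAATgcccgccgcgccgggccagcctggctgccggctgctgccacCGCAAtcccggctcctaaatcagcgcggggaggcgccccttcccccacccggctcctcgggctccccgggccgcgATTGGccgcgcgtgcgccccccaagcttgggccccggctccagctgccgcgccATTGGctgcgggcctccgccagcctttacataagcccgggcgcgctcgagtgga
The motifs searched were GGGCGG (GC box), the CCAAT box, CACGTG (E-box), GAGGAA (PU.1 core), TTGCG (C/EBP site) and TGTGGT (RUNX core). The Dmwd window held 1 GC box, 1 CCAAT box and 1 RUNX core, and the Dmpk window held 1 CCAAT box. The Six5 window held 1 GC box, the Ednra window held none of the 6, and the window at the first of 2 Crtac1 starts held 2 GC boxes, 3 CCAAT boxes and 1 C/EBP site. No motif was shared by all the windows of Dmwd, Dmpk, Ednra and Crtac1, while the CCAAT box was in those of Dmwd, Dmpk and Crtac1. Among 32851 promoter windows of this length, 32.7% held a GC box, 33.8% a CCAAT box, 6.02% the E-box, 23.3% the PU.1 core, 14.5% the C/EBP site and 14.0% the RUNX core. The windows also differed in CpG dinucleotides, with 1 in Dmpk, 6 in Ednra, 13 in Six5, 20 in Dmwd and 33 in Crtac1 against a median of 6 over all promoters. A match is a description of the letters in these windows and not of binding.

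Total counts were between 33453580 and 68316154 per library, so that 3 counts, the limit that a count of 0 allows, corresponded to 0.0348 to 0.124 CPM. CPM were scaled by the trimmed mean of M-values (TMM) throughout. Ly6g, a neutrophil surface protein, went with the labels of the sort. It was at 743 CPM in BM Gr-1hi and 412 CPM in SP Gr-1hi, against 4.21 CPM in BM Gr-1lo and 6.98 CPM in SP Gr-1lo. The 5 monocyte markers summed to 6817 to 7637 CPM in BM Gr-1lo and 1318 to 1723 CPM in BM Gr-1hi, and to 5110 to 5121 and 991 to 1117 CPM in SP. Ly6c2, 1 of them, differed less, at 1919 and 1324 CPM in BM Gr-1lo and Gr-1hi and 1318 and 708 CPM in SP. Xist, expressed from the inactive X chromosome, was at 12032 and 9898 counts in libraries 5 (SP Gr-1hi) and 7 (SP Gr-1lo) and at 5 counts or fewer in the others, whereas the Y-linked gene Ddx3y was at 0 counts in library 5, 1595 in library 7 and 1725 to 4902 in the rest. Ddx3y was thus counted in 7 of 8 libraries although all are labelled female, and libraries 5 and 7 stood apart from the other library of their group, so SP to BM values without both are given beside those of Dmwd, Dmpk, Ednra and Crtac1.

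Dmwd was the most abundant of the 5 genes and was almost confined to the Gr-1hi subset. Its level was 105 and 86.2 CPM in BM Gr-1hi (libraries 9 and 10), 12.1 and 26.7 CPM in SP Gr-1hi (5 and 6), 0.328 and 0.397 CPM in BM Gr-1lo (11 and 12) and 0.127 and 0.209 CPM in SP Gr-1lo (7 and 8). The 4 groups did not overlap and were ordered BM Gr-1hi, SP Gr-1hi, BM Gr-1lo, SP Gr-1lo. Behind these values stood 2813 and 2089 counts in BM Gr-1hi but only 16 and 21 in BM Gr-1lo and 6 and 18 in SP Gr-1lo. Per length of transcript, Dmwd was at 62.8 TPM (counts scaled to exon length and library size) on average in BM Gr-1hi, where 1702 of 53947 genes had a higher mean TPM, and at 15.0 TPM in SP Gr-1hi, where 5495 had.

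Dmpk, the kinase gene, followed the same order between the Gr-1hi groups at a lower level. It was at 34.4 and 24.8 CPM in BM Gr-1hi and at 3.38 and 6.54 CPM in SP Gr-1hi. In Gr-1lo cells it was at 0 and 0.170 CPM in BM and at 0.042 and 0.209 CPM in SP, from 0, 9, 2 and 18 counts, so that these 2 groups overlapped. The mean TPM was 11.5 in BM Gr-1hi and 2.27 in SP Gr-1hi. The ratio of Dmwd to Dmpk in TPM was 5.17 and 5.89 in the BM Gr-1hi libraries and 6.08 and 6.91 in the SP Gr-1hi libraries. Both genes were chosen for their decrease in these same libraries. That choice fixes much of how close the ratios are, and nothing is read from them.

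Six5, the third gene of the row, stayed near the limit of detection. It had 5 and 5 counts in BM Gr-1hi, 5 and 0 in SP Gr-1hi, 10 and 1 in BM Gr-1lo and 4 and 6 in SP Gr-1lo, at most 0.206 CPM. Both BM Gr-1hi libraries were above the libraries of either SP group, and all other pairs of groups overlapped. The 10 counts of BM Gr-1hi against 5 of SP Gr-1hi gave a BM to SP ratio of 2.53 with an exact 95% interval of 0.789 to 9.44, which covers counting error only. Six5 did not pass the filter on low counts that the other 4 genes passed. A difference in Six5 of this size was not detectable at this depth.

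Crtac1 was at 27.4 and 19.4 CPM in BM Gr-1hi and 3.83 and 5.55 CPM in SP Gr-1hi. It was near 0 in Gr-1lo cells, at 0.020 and 0.132 CPM in BM and 0.084 and 0.070 CPM in SP, from 1, 7, 4 and 6 counts, and these 2 groups overlapped. Its mean of 15.1 TPM in BM Gr-1hi was above the 11.5 TPM of Dmpk. Ednra, the endothelin receptor, was lowest of the 4 in the Gr-1hi subset, at 13.8 and 8.79 CPM in BM and 1.08 and 2.23 CPM in SP, or 3.47 and 0.600 TPM on average. In Gr-1lo cells Ednra was at 0.287 and 0.302 CPM in BM (14 and 16 counts) and at 0.084 and 0.046 CPM in SP (4 and 4 counts), and the groups did not overlap. The gene 4933431K23Rik, which lies antisense across the whole of Ednra, had at most 3 counts in any library. The libraries were made with a stranded kit and the deposited counts are labelled stranded, but the strand option of the counting was not stated. With so few counts on the antisense gene little could be split between the 2 genes.

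**Figure D1:**
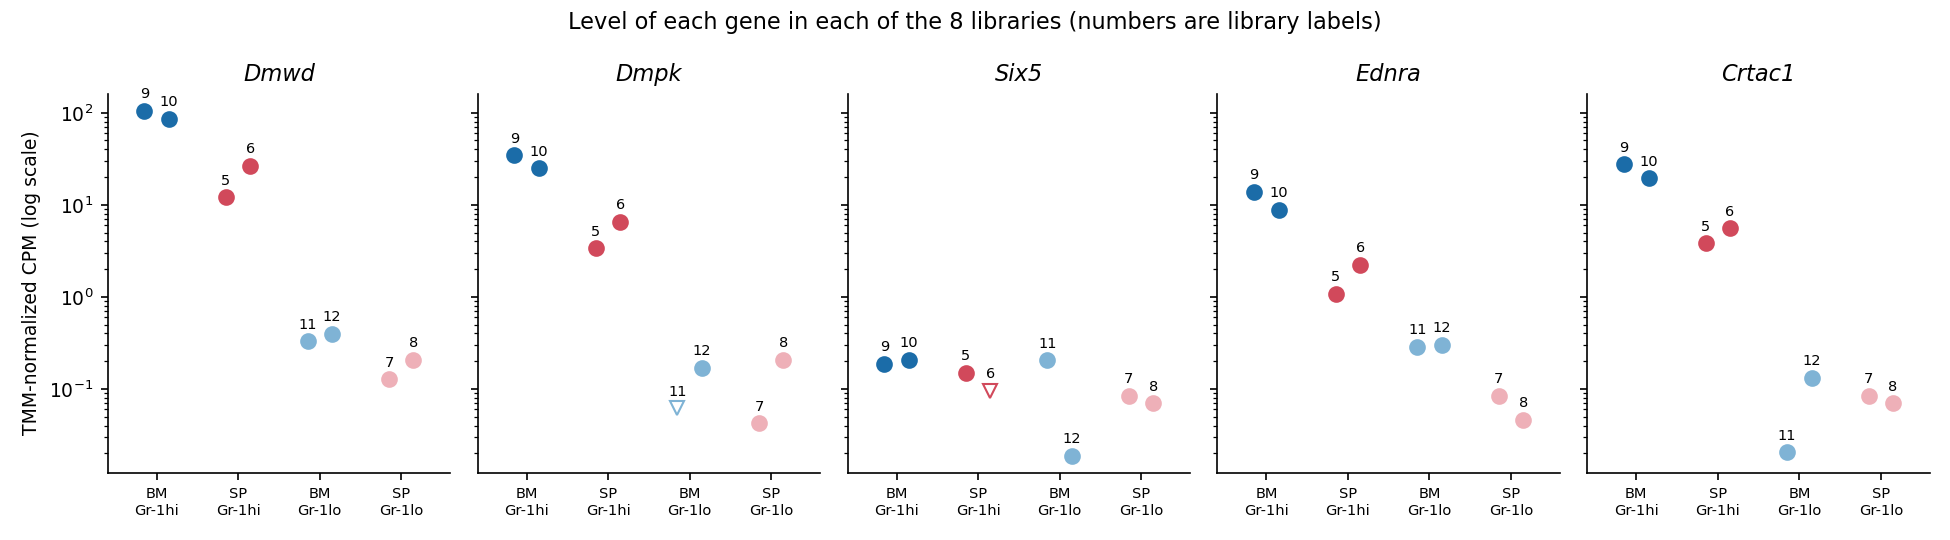
TMM-normalized CPM (log axis) of Dmwd, Dmpk, Six5, Ednra and Crtac1 in each of the 8 libraries, by group; filled points are libraries, with their label numbers, and open triangles are libraries with 0 counts drawn at the level of 3 counts. Dmwd, Dmpk, Ednra and Crtac1 step down from BM Gr-1hi to SP Gr-1hi and again to the Gr-1lo groups, whereas Six5 stays at or below 0.206 CPM in every library.

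Between SP and BM Gr-1hi cells the log2 fold change (FC) was -2.77 (SE 0.36) for Ednra, -2.58 (SE 0.46) for Dmpk, -2.32 (SE 0.29) for Crtac1 and -2.30 (SE 0.33) for Dmwd, with n = 2 libraries in each group. These values chose the genes and are given as a description, with no test. Of all 17650 genes tested, 1.48% were called lower in SP Gr-1hi and 15.5% were called in either direction by edgeR's quasi-likelihood test (Benjamini-Hochberg adjusted p up to 0.05, FC of 2 or more). By the fitted change, 45 genes lay below Ednra, 55 below Dmpk, 69 below Crtac1 and 70 below Dmwd, with no limit on level. Dmwd, at -2.30, was the last gene taken and the next of the 118 genes in that ranking was at -2.25. Without libraries 5 and 7 the FC were smaller, at -2.32 for Ednra, -2.17 for Dmpk, -2.06 for Crtac1 and -1.83 for Dmwd, since library 5 was the lower of the SP Gr-1hi libraries for all 4 genes.

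Markers of other cells moved with the same comparison. The summed level of 7 B cell markers was 14.2 to 17.4 CPM in BM Gr-1hi and 328 to 481 CPM in SP Gr-1hi, and all 7 were called higher in SP. Plasma cell markers were at 7.02 to 8.56 CPM in BM and 65.5 to 121 CPM in SP (3 of 4 called higher), T cell markers at 5.04 to 7.70 and 36.5 to 56.6 CPM (4 of 5), and erythroid markers at 20.6 to 24.3 and 119 to 409 CPM (4 of 5). The 5 neutrophil markers summed to 84835 to 92255 CPM in BM and 53917 to 63259 CPM in SP, with 1 of 5 called lower. Among them Csf3r was higher in SP, at 4402 and 7976 CPM (log2 FC 0.86, edgeR adjusted p = 0.006), short of the FC limit. Ly6g, S100a8, S100a9 and Retnlg were lower. The 5 mature neutrophil markers, Csf3r included, summed to 25341 to 28075 CPM in BM and 22552.5 to 23232 CPM in SP. Of these Cxcr2, Il1b and Csf3r were higher in SP on average, and Mmp8 (called) and Mmp9 were lower. The 4 early granule markers, which belong to promyelocytes, summed to 31.0 to 38.0 CPM in BM and 8.20 to 15.0 CPM in SP, with 3 of 4 called lower, among them Mpo at a log2 FC of -1.97 (SE 0.49, edgeR adjusted p = 0.023). The same early granule markers were far higher in Gr-1lo cells, at 3121 to 3162 CPM in BM and 1128 to 2042 CPM in SP. Secondary granule markers summed to 67784 to 76687 CPM in BM Gr-1hi and 30727 to 55696 CPM in SP Gr-1hi, with 0 of 5 called. Relative to 1000 CPM of neutrophil markers in the same library, Dmwd was at 1.24 and 0.935 CPM in BM and 0.225 and 0.422 CPM in SP Gr-1hi. Dmwd was chosen for non-overlap in these same libraries, and the marker sum fell less than Dmwd did. The lack of overlap on that scale was thus largely fixed by the choice, and nothing is read from it. Between the subsets in BM, Ednra overlapped on that scale, at 0.163 and 0.0953 CPM in Gr-1hi and 0.1 and 0.0992 CPM in Gr-1lo. The choice took genes that were high in BM Gr-1hi, so the lack of overlap of Dmwd, Dmpk and Crtac1 there was largely fixed as well. Nothing is read from it. For Ednra and Crtac1, genes known from vessel and connective tissue, mesenchymal markers summed to 5.08 to 7.14 CPM in BM and 2.77 to 5.20 CPM in SP Gr-1hi, and muscle markers to 17.8 to 29.5 and 12.0 to 17.2 CPM. None of these was called, and they were led by Col1a1 (5.61 and 3.43 CPM) and Acta2 (21.4 and 11.8 CPM), while Lum, Des and Ckm were at 0 in BM Gr-1hi. The endothelial sum went the other way, at 24.8 to 30.4 CPM in BM and 34.9 to 44.7 CPM in SP Gr-1hi. It was led by Pecam1 (26.6 and 37.6 CPM, not called). Vwf was called higher, at 0.371 and 1.29 CPM, while Kdr was at 0.389 and 0.663 CPM and Cdh5 at 0.298 and 0.218 CPM. The part of these cells in the differences of Dmwd, Dmpk, Ednra and Crtac1 was not tested, and in these bulk samples fewer cells of a type and less RNA per cell cannot be told apart.

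The Gr-1lo comparison used libraries that had no part in choosing the genes, and Dmwd and Ednra were tested there. Dmwd, Dmpk, Ednra and Crtac1 were at levels of 0 to 0.397 CPM in these libraries. Six5 did not pass the filter and was not tested. The fit took its spread from all groups, the Gr-1hi libraries included. Dmpk and Crtac1 passed the filter only through their Gr-1hi libraries, since they did not pass it in a fit of the 4 Gr-1lo libraries alone. Their values are therefore not independent of the choice and are given as a description, with no test. Of all genes, 4.06% were called between SP and BM Gr-1lo. Ednra was not called by edgeR, at a log2 FC of -2.23 (SE 0.65, edgeR adjusted p = 0.101, unadjusted p = 0.00858), with both SP libraries below both BM libraries. Its 30 counts in BM against 8 in SP corresponded to a BM to SP ratio of 4.93 with an exact 95% counting interval of 2.21 to 12.4. The adjusted p for Ednra was 0.012 with DESeq2 and between 0.0011 and 1.0 over the alternatives tried, so the call depended on the method. DESeq2 did not call Dmwd. Without libraries 5 and 7 the edgeR adjusted p was 0.083 for Ednra at a log2 FC of -2.61, and the log2 FC was -0.80 for Dmwd, 1.20 for Dmpk and -0.18 for Crtac1.

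Dmwd was at a log2 FC of -1.02 (SE 0.74, edgeR adjusted p = 0.497) in Gr-1lo, with SP below BM in every library. As a description, Dmpk was at 0.71 (SE 1.17) and Crtac1 at -0.06 (SE 0.82), with overlapping libraries and no stable direction. Leaving out library 8 turned Dmpk to -1.004 and leaving out library 11 turned it to -0.22, while Crtac1 was at 0.10 without library 8 and 1.74 without library 12. With 9 and 20 counts of Dmpk and 8 and 10 of Crtac1 in BM and SP, differences of this size were not detectable. Marker sums moved in Gr-1lo too: B cell markers were at 7.76 to 9.67 CPM in BM and 60.4 to 76.3 CPM in SP (6 of 7 called higher), erythroid markers at 4.32 to 4.50 and 92.9 to 129 CPM (5 of 5), and secondary granule markers at 4889 to 5683 and 9058 to 10205 CPM (3 of 5). Early granule markers were lower in SP Gr-1lo, at 3121 to 3162 CPM in BM and 1128 to 2042 CPM in SP (1 of 4 called). The part of all these markers in the Gr-1lo values was not tested.

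The 4 genes were all higher in Gr-1hi than in Gr-1lo cells, as a description that shares the Gr-1hi libraries with the choice. In BM the log2 FC was 8.35 (SE 0.71) for Dmpk, 8.17 (SE 0.45) for Crtac1, 8.03 (SE 0.47) for Dmwd and 5.25 (SE 0.43) for Ednra. In this fit 30, 43 and 52 of the 17650 genes had a larger value than Dmpk, Crtac1 and Dmwd, and 349 a larger one than Ednra, while Ly6g was at 7.46. On leaving out 1 library the BM value ranged from 7.39 to 13.3 for Dmpk and from 7.41 to 9.95 for Crtac1. In SP the values were 6.74 (SE 0.50) for Dmwd, 5.91 (SE 0.45) for Crtac1, 5.06 (SE 0.66) for Dmpk and 4.71 (SE 0.55) for Ednra, and Ly6g was at 5.87. Of all genes, 57.3% were called between the subsets in BM and 49.6% in SP, and both comparisons share their Gr-1hi libraries with the SP to BM comparison. The difference between the subsets in the SP to BM change was -3.29 (SE 1.25) for Dmpk, -2.26 (SE 0.91) for Crtac1, -1.29 (SE 0.85) for Dmwd and -0.54 (SE 0.90) for Ednra, where 9.74% of all genes were called. The SP to BM changes of Ednra in the 2 subsets thus differed by less than 1 SE, and the value of Dmpk rested on 9 and 20 counts in the Gr-1lo groups.

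**Figure D2:**
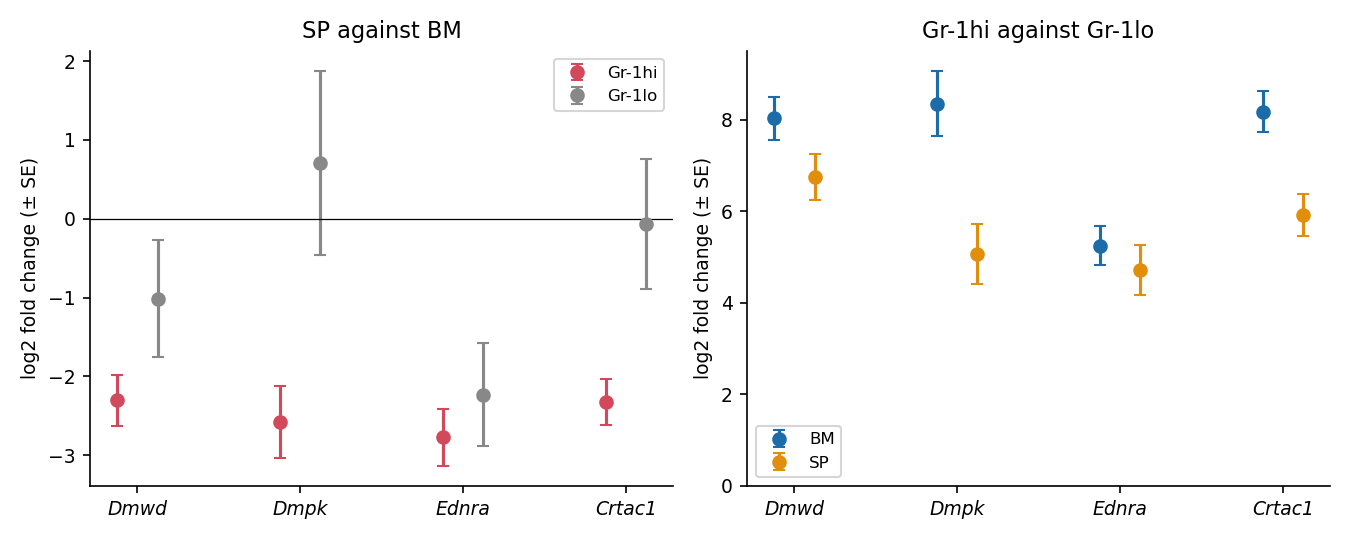
Log2 fold changes with their SE (2 libraries per group) of Dmwd, Dmpk, Ednra and Crtac1, for SP against BM on the left and Gr-1hi against Gr-1lo on the right. In Gr-1hi cells the 4 values lie between -2.77 and -2.30, whereas in Gr-1lo cells only Dmwd and Ednra are below 0 by more than 1 SE.

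Within 200 kb on either side, 29 genes other than Dmwd, Dmpk and Six5 are annotated, of which 26 are in the table and 16 passed the filter. By edgeR 0 of 16 were called between SP and BM in either subset, where 15.5% of all genes were called in Gr-1hi and 4.06% in Gr-1lo, and DESeq2 called 1 in each. Without the FC limit, 5 passed the adjusted p in Gr-1hi and 2 in Gr-1lo, a share not given here for all genes. By edgeR 6 and 5 had an unadjusted p of at most 0.05, where 8015 and 3545 of all 17650 genes had. The 5 in Gr-1hi (Eml2, Pglyrp1, Ccdc61, Qpctl and Vasp) were all lower in SP, the direction of Dmwd and Dmpk. Of the 8015 genes, 3512 were lower in SP too. Rsph6a, the gene before Dmwd, which encodes a radial spoke protein of cilia, had at most 4 counts in any library, and Gm4969, the gene after Six5, was at 0.020 CPM or less. Dmwd and Dmpk were therefore an expressed pair between genes near 0.

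The next expressed genes started 59.5 kb before and 36.0 kb after the start of Dmpk. Sympk, a scaffold of mRNA 3′ end processing, was at 85.9 CPM in BM Gr-1hi and 80.0 CPM in SP Gr-1hi, and at 108 and 102 CPM in the Gr-1lo groups, with a log2 FC of -0.10 (SE 0.08, edgeR adjusted p = 0.342) in Gr-1hi. Fbxo46, an F-box gene, was at 22.6 and 20.5 CPM in BM and SP Gr-1hi and at 9.09 and 10.1 CPM in the Gr-1lo groups. Neither was called between SP and BM in either subset, although both SP libraries of Sympk were slightly below both BM libraries in each subset (81.2 and 78.8 against 87.1 and 84.7 CPM in Gr-1hi).

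Eml2, a microtubule-associated protein gene 92.6 kb away, was the neighbour nearest to the pair in its pattern. It was at 148 and 147 CPM in BM Gr-1hi, 58.5 and 93.5 CPM in SP Gr-1hi and 23.7 to 31.5 CPM in the Gr-1lo libraries, and its log2 FC of -0.96 (SE 0.20, edgeR adjusted p = 0.008) fell just short of the FC limit. Pglyrp1, a bactericidal granule protein, was at 1632 CPM in BM and 1048 CPM in SP Gr-1hi (log2 FC -0.64, SE 0.13, edgeR adjusted p = 0.007), but in Gr-1lo it was higher in SP, at 116 against 69.6 CPM (0.73, edgeR adjusted p = 0.013). Vasp, an actin regulator of motile cells, did likewise, with 1698 and 1277 CPM in Gr-1hi (log2 FC -0.41, edgeR adjusted p = 0.011) and 150 and 210 CPM in Gr-1lo (0.49, edgeR adjusted p = 0.018). Ppm1n, a phosphatase gene, was at 1.24 CPM in SP Gr-1hi against 0.294 CPM in BM Gr-1hi, with an edgeR adjusted p of 0.054.

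The remaining neighbours with at least 1 CPM were Ccdc61, Irf2bp1, Gm10676, Mypopos, Qpctl, Snrpd2 and Opa3, with SP to BM log2 FC in Gr-1hi from -0.59 for Ccdc61 to 0.46 for Mypopos. The median over the 16 was -0.12 in Gr-1hi and 0.03 in Gr-1lo, against 0.03 and -0.01 over all genes. Between subsets, 8 of 16 were called in BM (6 higher in Gr-1hi and 2 lower) and 7 of 16 in SP (5 higher and 2 lower), shares near those of all genes. At the other loci, Tmem184c beside Ednra was at 12.7 CPM in BM Gr-1hi and 11.3 CPM in SP Gr-1hi, and R3hcc1l beside Crtac1 at 42.1 and 38.5 CPM, so neither followed its neighbour.

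**Figure D3:**
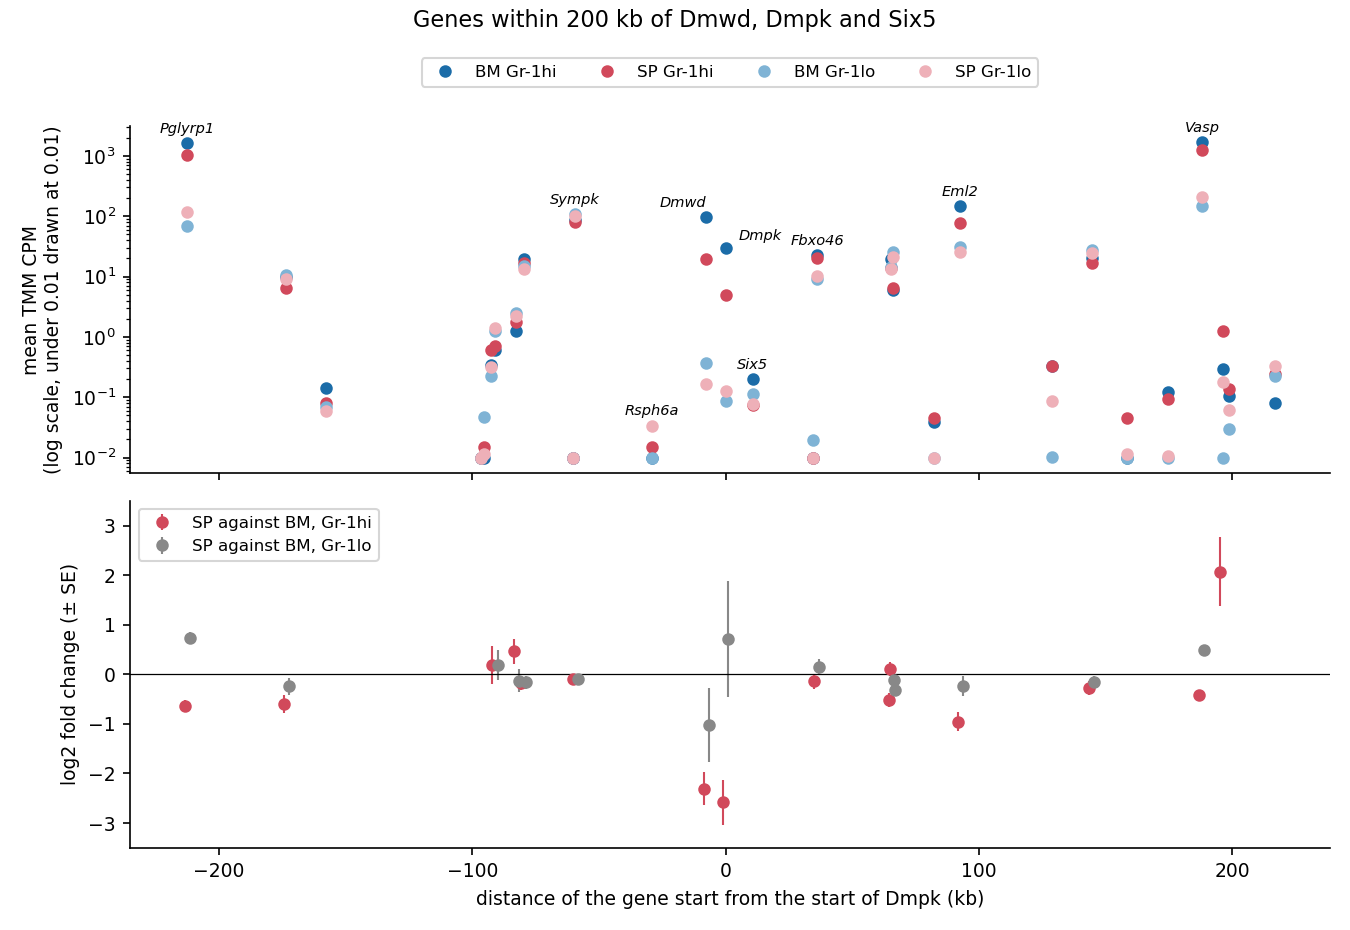
Genes within 200 kb of Dmwd, Dmpk and Six5 by distance of their start from the start of Dmpk in kb: mean TMM CPM of each group (log axis) above, and log2 fold changes with SE of genes with at least 1 CPM in some group below. Dmwd and Dmpk are at -2.30 and -2.58 in Gr-1hi, values by which they were chosen, and the lowest of the neighbours drawn is Eml2 at -0.96; Ppm1n is not drawn for Gr-1lo because BM Gr-1lo had 0 counts.

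The pathways of the 5 genes were described from 5 lists. Of 18 endothelin pathway genes, 12 passed the filter and 2 were called between SP and BM Gr-1hi, 1 in each direction, a share near the 15.5% of all genes. Ece1, the enzyme that releases active endothelin from its precursor, rose from 0.785 and 1.07 CPM in BM Gr-1hi to 6.81 and 6.44 CPM in SP Gr-1hi (log2 FC 2.84, SE 0.25, edgeR adjusted p = 0.000239), and was at 31.7 to 45.1 CPM in all 4 Gr-1lo libraries. Arrb1, an arrestin that uncouples G protein-coupled receptors, fell from 341 and 277 CPM to 138 and 171 CPM (log2 FC -1.002, SE 0.13, edgeR adjusted p = 0.001), which is just past the FC limit. Without libraries 5 and 7 only 1 gene of the list, Ece1, was called. The list's median log2 FC was -0.52 in Gr-1hi against 0.03 over all genes, and 0 of 12 were called in Gr-1lo by edgeR or DESeq2. By edgeR 7 of 12 in Gr-1hi and 1 in Gr-1lo had an unadjusted p of at most 0.05. Of all 17650 genes, 8015 and 3545 had.

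The ligand genes of the receptor were at or near 0. Edn1 had 20 counts (0.232 CPM) in library 8 and at most 3 in any other library, and Edn2 and Edn3 were at 0.037 CPM or less in every group mean. The second receptor gene, Ednrb, named after its values were seen, had the opposite pattern to Ednra, with 151 and 67 counts in BM Gr-1lo and 177 and 271 in SP Gr-1lo against 1, 2, 1 and 0 counts in the Gr-1hi libraries. The log2 ratio of Gr-1hi to Gr-1lo counts for Ednrb was -5.19 in BM (exact 95% counting interval -7.47 to -3.62) and -7.76 in SP (-13.1 to -5.27). Ednra RNA was thus mostly in Gr-1hi cells and Ednrb RNA in Gr-1lo cells. The genes of highest TPM in the list were Arrb2, a second arrestin, at 1380 and 805 CPM in BM and SP Gr-1hi, and Plcb2, a phospholipase C of blood cells, at 428 and 267 CPM, with log2 FC of -0.78 and -0.68 (edgeR adjusted p = 0.009 and 0.034).

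Of 15 relatives and RNA partners of Dmpk, 14 passed the filter and 1 was called between SP and BM Gr-1hi, in the direction opposite to Dmpk, where 15.5% of all genes were called. Cdc42bpb, a related kinase that acts with the GTPase Cdc42, was at 1.43 CPM in BM and 6.15 CPM in SP Gr-1hi (log2 FC 2.12, SE 0.25, edgeR adjusted p = 0.000706), and at 44.1 and 46.9 CPM in the Gr-1lo groups. The kinase Stk38 was at 758 and 710 CPM and Ppp1r12a, which encodes the myosin phosphatase subunit, at 550 and 410 CPM in BM and SP Gr-1hi. Mbnl1, the splicing factor bound by expanded repeat RNA in myotonic dystrophy, was at 210 and 220 CPM in BM and SP Gr-1hi. The list's median in Gr-1hi was -0.25, and 0 of 14 were called in Gr-1lo by edgeR or DESeq2. By edgeR 10 of 14 in Gr-1hi and 0 in Gr-1lo had an unadjusted p of at most 0.05. Of all 17650 genes, 8015 and 3545 had.

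Of 11 genes related to Six5 and its Eya partners, 3 passed the filter and 0 were called between SP and BM. For this list and the next 2, the share of all genes called was 15.5% in Gr-1hi and 4.06% in Gr-1lo. Dach1, a transcriptional cofactor, was at 126 CPM in BM Gr-1hi and 82.0 CPM in SP Gr-1hi (log2 FC -0.62, edgeR adjusted p = 0.045), and Eya3 at 55.9 and 49.1 CPM. Of 5 relatives and partners of Dmwd, all passed and 0 were called, with Usp46, a deubiquitinase, at 111 and 58.9 CPM (log2 FC -0.91, SE 0.18, edgeR adjusted p = 0.007) Usp1 at 37.0 and 35.2 CPM and Usp12 at 52.8 and 55.6 CPM. Usp12 was higher in SP Gr-1lo, at 129 against 96.9 CPM (log2 FC 0.42, edgeR adjusted p = 0.038), short of the FC limit, and Usp46 was named after its values were seen. Of 10 genes of Crtac1 and the Nogo receptor, 6 passed and 0 were called, and the receptor gene Rtn4r itself was at 0.039 CPM in BM and 0.015 CPM in SP Gr-1hi. Pirb, an inhibitory receptor of myeloid cells that also binds Nogo, was at 2919 and 2639 CPM, and Rtn4, which encodes Nogo, at 174 and 161 CPM. No gene of these 3 lists was called in Gr-1lo by edgeR either, and DESeq2 called 0 of them in either subset. At an unadjusted p of at most 0.05, edgeR had 1, 2 and 1 genes of the 3 lists in Gr-1hi and 0, 2 and 2 in Gr-1lo. Of all 17650 genes, 8015 in Gr-1hi and 3545 in Gr-1lo had such a p-value.

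**Figure D4:**
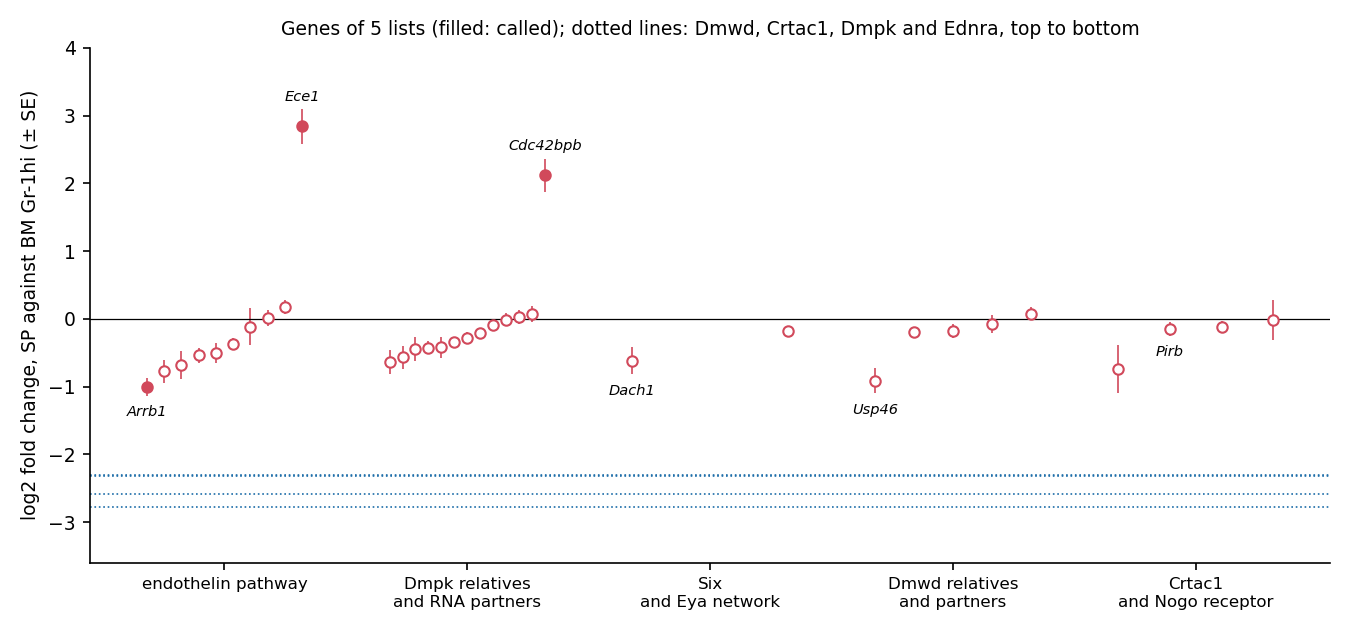
Log2 fold changes with SE between SP and BM Gr-1hi (2 libraries each) for genes of 5 lists with at least 1 CPM in a Gr-1hi group; filled points were called, and dotted lines give the values of Dmwd, Crtac1, Dmpk and Ednra. Ece1 (2.84) and Cdc42bpb (2.12) lie above 0, and the lowest gene drawn is Arrb1 at -1.002; the dotted lines are the values by which those genes were chosen.

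Pearson's r of log2(CPM + 1) between pairs of the 4 genes was 0.954 to 0.998 over the 8 libraries. The choice of the genes for 1 pattern in the Gr-1hi libraries fixes much of this, and nothing is read from it. Of 9751 genes with at least 10 CPM in some group, those most like Dmpk were Crtac1, Cdk9 and Fam168b (r 0.998 for each). Dmwd was most like Zfp516, Ggnbp2 and Arhgef4 (r 0.999 for each), Ednra most like Arrb1, Rin2 and Gm12657 (r 0.998, 0.998 and 0.997) and Crtac1 most like Evi5l, Cdk9 and Dynlt1f (r 0.999, 0.999 and 0.998). Many genes were about as close, with 127 at an r over 0.99 to Dmpk, 428 to Dmwd, 17 to Ednra and 155 to Crtac1. The order was not robust: with a pseudocount of 0.1 in place of 1, Crtac1 fell to rank 21 for Dmpk and Zfp516 to rank 173 for Dmwd. The sizes of the steps differed even where r was highest, since Zfp516 was at 359 and 172 CPM in BM and SP Gr-1hi and at 58.2 and 54.4 CPM in the Gr-1lo groups, where Dmwd was near 0.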

How the data were processed

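RNA of CD11b+ Gr-1hi and Gr-1lo cells sorted from SP and BM of sanroque mice was made into stranded mRNA libraries and sequenced as paired reads. The authors trimmed reads, aligned them with STAR to GRCm38 and counted them per gene with featureCounts; the deposited values were raw counts for 54188 genes in 8 libraries, with no normalization. No column was left out. Here, genes were filtered with filterByExpr, scaled by TMM and tested with edgeR's quasi-likelihood test (edgeR 4.0.16, R 4.3.3) in 1 fit of the 4 groups of 2 libraries with 4 residual degrees of freedom, and p-values were adjusted by Benjamini-Hochberg over 17650 genes. A call needed an adjusted p of at most 0.05 and a FC of at least 2. The members and lists were chosen with earlier results of these data known. Named were the 5 genes, all genes within 200 kb of Dmwd, Dmpk and Six5 with at least 1 CPM, and the nearest genes at the other loci. In each list up to 4 called genes of largest change and the 2 of highest TPM were named. For Dmwd, Dmpk, Ednra and Crtac1 the 3 genes of highest r were named, and Six5 was too low for this. Other genes of the lists were named after their values were seen. Gene positions and exon lengths for TPM came from GENCODE M21 (53947 genes matched) and promoters from RefSeq. Scripts were tested on simulated data. Alternatives were RLE and upper-quartile scaling, DESeq2 1.42.0, no filter, an exact test on quantile-normalized TPM, a fit of 4 libraries, a stricter threshold and leaving out libraries. Intervals cover counting error only. Total counts of 33453580 to 68316154 set a precision of 3 counts, or 0.0348 to 0.124 CPM.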

Additional observations from a re-analysis of the deposited data

Results flagged for a closer look

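Of the neighbours and list genes that passed the filter, 5 had a change between SP and BM that differed between Gr-1hi and Gr-1lo cells. They were called by the interaction term of the same edgeR fit, in which 9.74% of all genes were called. The 5 were 1 of 16 neighbours, 2 of 12 endothelin pathway genes, 1 of 14 relatives and RNA partners of Dmpk and 1 of 3 genes related to Six5. In the lists of Dmwd and Crtac1, 0 of 5 and 0 of 6 were called. The share over these sets was no higher than that of all genes, so the 5 are given as a description. Ece1 differed by 2.87 on the log2 scale (SE 0.31, edgeR adjusted p = 0.002), with a change of 2.84 in Gr-1hi and -0.03 in Gr-1lo. Cdc42bpb differed by 2.03 (SE 0.31, edgeR adjusted p = 0.006), with 2.12 in Gr-1hi and 0.09 in Gr-1lo. Pglyrp1 differed by -1.37 (SE 0.18, edgeR adjusted p = 0.004), with -0.64 in Gr-1hi and 0.73 in Gr-1lo. Arrb2 differed by -1.09 (SE 0.23, edgeR adjusted p = 0.019), with -0.78 and 0.32. Dach1 differed by -1.03 (SE 0.29, edgeR adjusted p = 0.047), with -0.62 and 0.41.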

How the results depend on the processing

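The SP to BM change in Gr-1hi ranged over the alternatives from -3.46 to -2.32 for Ednra, -3.21 to -2.17 for Dmpk, -2.69 to -2.06 for Crtac1 and -3.06 to -1.83 for Dmwd, a direction that the choice of the genes fixes. In Gr-1lo, 53 of 62 over Dmwd, Dmpk, Ednra and Crtac1 were unchanged in direction and call, where Dmpk and Crtac1 are a description only. There Ednra passed the threshold with DESeq2 (-2.34), with no filter (-2.18) and without library 5 or 6, and ranged from -2.59 to -1.76 when each library was left out. Dmpk turned to -0.036 in the exact test and ranged from -1.004 to 5.67 on leaving out libraries, and Crtac1 from -0.79 to 1.74; the cause was not tested. In the exact test on TPM, Gr-1hi against Gr-1lo gave 6.56 for Dmpk, 7.21 for Dmwd, 4.56 for Ednra and 6.66 for Crtac1 in BM, and 2.44 for Ednra and 4.80 for Crtac1 in SP. On leaving out libraries, the BM value ranged from 7.39 to 13.3 for Dmpk and 7.41 to 9.95 for Crtac1, and the SP value of Dmpk from 4.48 to 6.75. The interaction ranged from -8.25 to -1.57 for Dmpk and -4.06 to -1.53 for Crtac1. Without libraries 5 and 7, Ednra was at 5.49 for Gr-1hi against Gr-1lo in SP and its interaction turned to 0.29. The 716 genes called in Gr-1lo became 1077 with no filter, 273 in the exact test, 222 at a FC of 8 with adjusted p below 0.01, and 389 to 785 on leaving out libraries. The 2727 in Gr-1hi became 688 in the exact test, 624 at the stricter threshold, 1617 without libraries 5 and 7 and 1715 to 3518 on leaving out 1. The 10109 and 8761 between subsets in BM and SP became 5679 and 4602 in the exact test and 2946 and 1301 at the stricter threshold. The 1719 of the interaction became 103 at the stricter threshold, 819 without libraries 5 and 7 and 915 to 2488 on leaving out 1. On leaving out libraries, the number called in Gr-1hi moved among the neighbours and in every list. In Gr-1lo it moved among the neighbours only. The exact test called 0 genes of any list. The paper calls the BM reference cells autologous, but the labels do not name the mouse behind each library. No paired analysis was therefore run. Depth limited Six5 and the Gr-1lo levels of the other genes, which rested on 8 to 37 counts per group.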
